A study of Mus musculus with 8 samples.

Results

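The 52 genes described here act in G2 phase and mitosis. They were taken by name from a list that was drawn up with earlier results of these data known. All 52 were found among the 20170 genes of the deposited count matrix. Expression was measured by single-cell RNA sequencing of mouse splenic T cells in 8 libraries, 2 for each of 4 groups. WT cells came from C57BL/6 mice and SDHA-KO cells from Sdha fl/fl CD4-Cre mice, 8 to 12 weeks old. Cre under the Cd4 promoter acts in T cells that pass through a CD4-expressing stage in the thymus, so T cells of other origin are not expected to carry the deletion. T cells of both genotypes were enriched by magnetic isolation and were sequenced either unstimulated or after stimulation through CD3 (antibody at 5 μg/mL) and CD28 (antibody at 2.5 μg/mL) for 48 hours. Whether the libraries of a group came from different mice is not stated in their labels, so all p values measure only the spread between libraries, which may be technical.

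Resting T cells are in G0 and stay there until the T cell receptor and CD28 are engaged, after which they enter a rapid series of divisions. Entry into mitosis is driven by the kinase CDK1 bound to a B-type cyclin. Aurora, BUB1 and TTK kinases then supervise the attachment of chromosomes to the spindle at kinetochores, and the anaphase-promoting complex (APC/C), with its activator CDC20 and its ubiquitin-conjugating enzyme UBE2C, ends mitosis by marking cyclin B and securin for destruction. Most of these genes are silent in quiescent cells and are transcribed late in the cycle, when MYB-MuvB and FOXM1 act at a short promoter element, the cell cycle genes homology region (CHR), that often lies beside CCAAT boxes bound by NF-Y. They are therefore commonly read as a marker of cycling cells, although the p53 pathway also acts on several of them, and PSRC1 and GTSE1 are known as p53 target genes.

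The promoters of 6 members are shown because the results turn on these genes: Cdk1, Ccnb1 and Ccnb2 as the central mitotic kinase and cyclins, and Psrc1, Gtse1 and Gas2l3, which had the largest differences between genotypes in stimulated CD4 cells. Each run covers 250 bases before and 50 bases after a transcription start in RefSeq on build GRCm38.p6, 5′ to 3′ on the gene's own strand. Capitals mark TTTGAA and TTCGAA, 2 forms of the CHR that read the same or as TTCAAA on the other strand, and CCAAT or its reverse complement ATTGG. The windows lie at chr10:69352863-69353162 (minus strand, Cdk1), chr13:100786437-100786736 (minus strand, Ccnb1), chr9:70421505-70421804 (minus strand, Ccnb2), chr3:108383554-108383853 (plus strand, Psrc1), chr15:85859457-85859756 (plus strand, Gtse1) and chr10:89443918-89444217 (minus strand, Gas2l3).
Cdk1: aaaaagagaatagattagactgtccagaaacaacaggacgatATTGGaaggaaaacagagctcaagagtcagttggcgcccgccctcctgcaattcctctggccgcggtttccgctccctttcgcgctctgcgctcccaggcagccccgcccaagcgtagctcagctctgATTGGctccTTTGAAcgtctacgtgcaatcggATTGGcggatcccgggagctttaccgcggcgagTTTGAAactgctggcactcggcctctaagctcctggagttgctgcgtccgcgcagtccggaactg
Ccnb1: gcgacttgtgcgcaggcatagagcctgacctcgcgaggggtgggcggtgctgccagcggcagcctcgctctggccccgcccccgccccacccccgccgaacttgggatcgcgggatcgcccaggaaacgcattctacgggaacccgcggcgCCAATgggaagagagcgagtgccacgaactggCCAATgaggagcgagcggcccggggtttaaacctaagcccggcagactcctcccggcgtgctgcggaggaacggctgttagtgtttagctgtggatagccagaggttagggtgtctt
Ccnb2: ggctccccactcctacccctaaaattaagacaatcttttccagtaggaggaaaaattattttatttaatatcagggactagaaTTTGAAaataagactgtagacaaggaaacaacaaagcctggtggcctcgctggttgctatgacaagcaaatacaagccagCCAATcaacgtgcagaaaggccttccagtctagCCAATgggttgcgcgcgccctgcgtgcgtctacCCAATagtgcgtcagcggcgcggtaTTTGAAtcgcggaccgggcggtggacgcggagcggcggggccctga
Psrc1: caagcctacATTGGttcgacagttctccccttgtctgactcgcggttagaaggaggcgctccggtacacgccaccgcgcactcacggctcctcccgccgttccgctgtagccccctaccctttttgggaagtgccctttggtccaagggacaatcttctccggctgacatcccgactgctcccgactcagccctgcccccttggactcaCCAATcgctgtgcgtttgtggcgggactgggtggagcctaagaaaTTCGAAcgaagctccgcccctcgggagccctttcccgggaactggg
Gtse1: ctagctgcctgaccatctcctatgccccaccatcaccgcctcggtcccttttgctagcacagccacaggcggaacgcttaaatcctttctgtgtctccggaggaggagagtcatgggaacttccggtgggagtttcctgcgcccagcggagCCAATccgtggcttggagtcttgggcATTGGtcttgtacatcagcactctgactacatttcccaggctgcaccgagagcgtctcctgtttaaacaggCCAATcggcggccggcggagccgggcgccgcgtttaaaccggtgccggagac
Gas2l3: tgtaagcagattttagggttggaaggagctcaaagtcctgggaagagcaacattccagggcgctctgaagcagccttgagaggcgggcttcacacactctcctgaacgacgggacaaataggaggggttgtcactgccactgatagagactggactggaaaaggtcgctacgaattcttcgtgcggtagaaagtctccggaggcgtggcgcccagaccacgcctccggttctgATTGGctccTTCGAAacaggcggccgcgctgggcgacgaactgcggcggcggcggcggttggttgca

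Windows were found for 46 members, 51 in all because some genes have several starts, and 6 members had none in the table (Dlgap5, Tpx2, Aurkb, Cdca2, Smc4 and Cdc25c). TTTGAA, searched on both strands, occurred in 33 of the 51 windows (64.7%), against 17.9% of the 32851 windows of the same length in the table. TTCGAA occurred in 5 windows (9.80% against 1.56%), those of Bub1, Top2a, Gas2l3 and both starts of Psrc1. CCAAT occurred in 39 windows (76.5% against 37.4%), and 31 windows (60.8% against 7.52%) held CCAAT together with either CHR form. Of the windows shown, Cdk1 and Ccnb2 held TTTGAA with CCAAT, and Psrc1 and Gas2l3 held TTCGAA with CCAAT. Ccnb1 and Gtse1 held CCAAT and neither of the 2 searched CHR forms. Other forms of the CHR were not searched, so these windows are not said to lack one. The windows of the several starts of Ect2, Psrc1 and Gtse1 overlap, those of Tmpo and Cbx5 do not, and a match of letters is a description and not a binding site.

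The matrix held 12846 cells, and levels are given as CPM, library-scaled counts after TMM normalization, where counts are unique molecular identifiers (UMIs) summed over the cells of a class in a library. The stimulated libraries held 859 and 967 WT cells and 1137 and 1284 SDHA-KO cells of the authors' CD4 class, and 844, 834, 511 and 396 cells of their CD8 class in the same order. The libraries shared 23 cell barcodes. Sdha, the deleted gene, stood at 74.0 and 73.1 CPM in stimulated WT CD4 cells and at 26.5 and 26.4 CPM in SDHA-KO CD4 cells, but at 76.2 and 74.9 against 53.3 and 50.5 CPM in CD8 cells. A UMI of Trdc, which encodes the constant region of the T cell receptor δ chain, was found in 59.1% and 56.1% of stimulated SDHA-KO CD8 cells and in 3.67% and 4.92% of WT CD8 cells. In SDHA-KO CD8 cells, those with a Trdc UMI held 78.3 and 74.9 Sdha CPM, counted over UMIs of nuclear genes only, and those without held 38.1 and 34.8, against 101 and 94.3 in WT CD8 cells without a Trdc UMI. Of the 4 genes listed as markers of γδ T cells only Trdc was in the matrix, so these cells are called by that UMI and not by a cell type. For this reason the comparison of genotypes in stimulated cells, and its difference between classes, was repeated in a strict class. For CD8 cells this was defined by a UMI of Cd8a or Cd8b1 and none of Cd4 or Trdc, and it kept 169 and 147 SDHA-KO cells and 736 and 709 WT cells. Summed B and plasma cell markers stood at 345 and 64.1 CPM in stimulated SDHA-KO CD8 cells and at 53.7 and 50.0 CPM in WT CD8 cells. Their part in the results was not tested, and the Tcm, Tem, percent.mt and length results below were not repeated in the strict class.

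The share of UMIs on the 13 mitochondrially encoded genes (percent.mt) also differed between genotypes. Cells at or above 10% made up 60.9% and 59.0% of stimulated WT CD4 cells and 13.1% and 9.97% of SDHA-KO CD4 cells, and 75.7% and 70.7% against 35.0% and 35.9% of CD8 cells. The comparison of genotypes in stimulated cells was therefore also made in cells with percent.mt under 10. These were 336 and 396 WT and 988 and 1156 SDHA-KO CD4 cells. Their depth differed, with median UMIs of 59713.5 and 59710.5 in WT and 26637.5 and 26960.5 in SDHA-KO CD4 cells. In CD8 cells the medians were 64638 and 64273 against 47146.5 and 45781.5. The part of depth was not tested in these cells. Fewer dividing cells and less RNA of these genes per cell cannot be told apart in values summed over a library.

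Stimulation raised nearly all of the 52 genes. In WT CD4 cells 50 members rose and 1 fell, where 66.3% of all genes tested were called (36.2% rose and 30.1% fell), and in WT CD8 cells 51 rose and 1 fell, where 65.7% were called, 35.5% rising and 30.3% falling (edgeR's quasi-likelihood test, Benjamini-Hochberg adjusted p under 0.05, over all genes). Cdk1 went from 0.802 and 0.749 CPM in the unstimulated WT CD4 libraries to 101 and 109.8 CPM in the stimulated ones, and Top2a, which untangles replicated DNA, from 5.61 and 6.44 to 389 and 384 CPM. Bub1 and Aurkb had 0 UMIs in both unstimulated WT CD4 libraries, which makes their rise at least 225.5-fold and 290.6-fold against the 3 UMIs over the group that 0 allows. With the 6 members at 0 in CD4 cells and the 7 in CD8 cells set to that bound, the median log2 fold change was 5.64 and 5.16, against a median over all genes of 0.08 and 0.09 and of 0.30 and 0.57 without composition scaling. The member that fell was Smc4, a condensin subunit, from 414 and 410 to 300.4 and 314 CPM in CD4 cells (log2 fold change −0.42), a call that was lost without composition scaling, while 2 members were called lower without either stimulated SDHA-KO library. Lbr, an inner nuclear membrane protein, fell short of the threshold in CD4 cells, from 91.6 and 93.8 to 79.0 and 80.8 CPM. Hmgb2, Smc4, Lbr, Tubb4b and Rangap1, whose products also serve chromatin, microtubules or nuclear transport outside mitosis, were among those already expressed in unstimulated cells.

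Before stimulation most members were near 0 in both genotypes. All 52 members entered the test, but most did so only through their levels in stimulated cells, so a low count of calls says little about them. In CD4 cells 39 of the 52 fitted log2 fold changes lay above 0, with a median of 0.46 against 0.03 over all genes, and their median SE was 0.42. Most of these values come from members near 0. The WT libraries also held fewer CD4 UMIs (6776027 and 7278274 against 10025515 and 11197659), so no shift of the set is read from them. In CD4 cells 2 rose in SDHA-KO and 0 fell, where 1.1% of all genes were called and 0.526% rose, and in CD8 cells 0 were called by edgeR or by DESeq2, where edgeR called 0.947% of all genes, with 16 and 8 members at an unadjusted p under 0.05. Ccnb2 stood at 0.481 and 0 CPM in WT CD4 cells and at 3.48 and 2.36 CPM in SDHA-KO CD4 cells. Rangap1, which activates the Ran GTPase at pores and kinetochores, stood at 26.6 and 26.4 CPM against 35.9 and 35.0 CPM (log2 fold change 0.42 ± 0.09 SE, edgeR adjusted p = 0.05, just inside the threshold). Both calls were lost without either unstimulated WT library or unstimulated SDHA-KO library 1, and 1 was left without any 1 of the other 5 libraries.

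**Figure D1:**
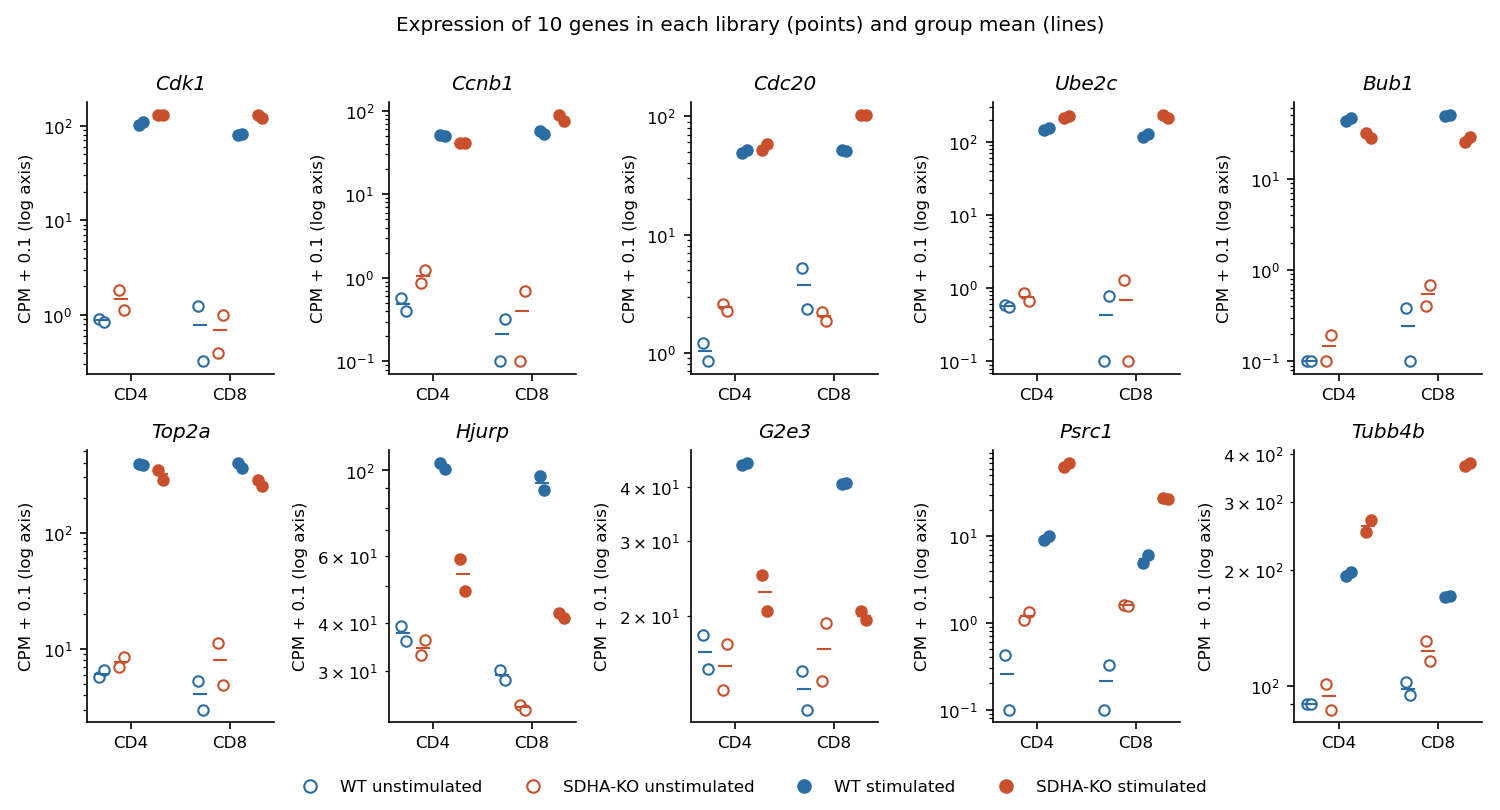
Expression of 10 of the genes in each library. The vertical axes give CPM plus 0.1 on a log scale, points are libraries (open, unstimulated and filled, stimulated, with WT in blue and SDHA-KO in red) and short lines are group means. Stimulated libraries lie above unstimulated ones in every panel, by least for G2e3 in SDHA-KO CD8 cells (19.5 against 19.2 CPM at the nearest), and Psrc1 is the gene whose filled red points lie farthest above the filled blue ones.

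After stimulation the members called between genotypes went in both directions, and no role was tested as a set. The share of members called was close to that of all genes for the CD4 class and above it for the CD8 class. In CD4 cells 10 members rose in SDHA-KO and 15 fell, where 22.7% of all genes tested rose and 20.5% fell. In CD8 cells 16 rose and 19 fell, where 26.8% rose and 23.5% fell. The shares of members called, 48.1% and 67.3%, stood beside 43.2% and 50.4% of all genes. These shares of all genes were not matched to the members for expression level. In simulated CD8 counts, changes of 0.5 on the log2 scale were called for 42.2% of genes of at least 20 CPM and 29.2% of genes of any level. In simulated CD4 counts these were 60.5% and 44.6%. The median log2 fold change of the members was −0.13 in CD4 and −0.10 in CD8 cells, against 0.00 and −0.01 over all genes, and their range ran from −1.82 to 2.80 and from −1.85 to 2.33. Both SDHA-KO libraries lay outside the WT pair for 37 members in CD4 cells (13 above and 24 below) and for 46 in CD8 cells (21 above and 25 below), where 74.7% and 77.3% of all genes did so. Without WT library 1 the CD4 counts were 6 higher and 7 lower, without WT library 2 they were 8 and 8, and without SDHA-KO library 2 they were 12 and 8, and the 19 lower calls in CD8 cells became 11 without WT library 1. With each of the 8 libraries left out in turn, 12 of the 25 calls in CD4 cells and 25 of the 35 in CD8 cells held in every fit, with the lone library of a group assumed to vary like the others. The calls lost in at least 1 fit were those of Cdk1, Ccnb1, Cks1b, Cdca8, Ttk, Cenpa, Kif20b, Nusap1, Ckap5, Hmmr, Top2a, Hmgb2 and Lbr in CD4 cells and of Cks2, Aurka, Cenpe, Kif11, Nusap1, Ckap2l, Ect2, Anln, Mki67 and Cbx5 in CD8 cells. By DESeq2 the CD4 counts were 8 higher and 9 lower, and the CD8 counts 14 and 11.

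In cells with percent.mt under 10 the balance lay on the lower side, with 3 members higher and 17 lower in CD4 cells (16.0% and 16.7% of all genes) and 10 higher and 18 lower in CD8 cells (18.4% and 17.0%). Without composition scaling, which moved the median of all genes by 0.19 in CD4 cells, the split was 10 higher and 9 lower in CD4 cells and 12 higher and 14 lower in CD8 cells, so the split into higher and lower calls moves with that shift. Relative to all genes the members stood lower, with a median log2 fold change of −0.16 in CD4 and −0.18 in CD8 cells against 0.00 and −0.01. The lower counts were both 11 without WT library 2 or without SDHA-KO library 2, and the 10 higher in CD8 cells became 6 without WT library 2. Of the 10 and 16 members called higher over all percentages, 3 and 10 were also called higher below 10%, and of the 15 and 19 called lower, 12 and 14 were also called lower, with 0 called in the opposite direction. In CD4 cells the 3 were Gtse1, Psrc1 and Rangap1, and Cks1b stood at 0.02 and was not called. Among the members lower in CD4 cells, Ttk, Ckap5 and Lbr were not called there.

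**Figure D2:**
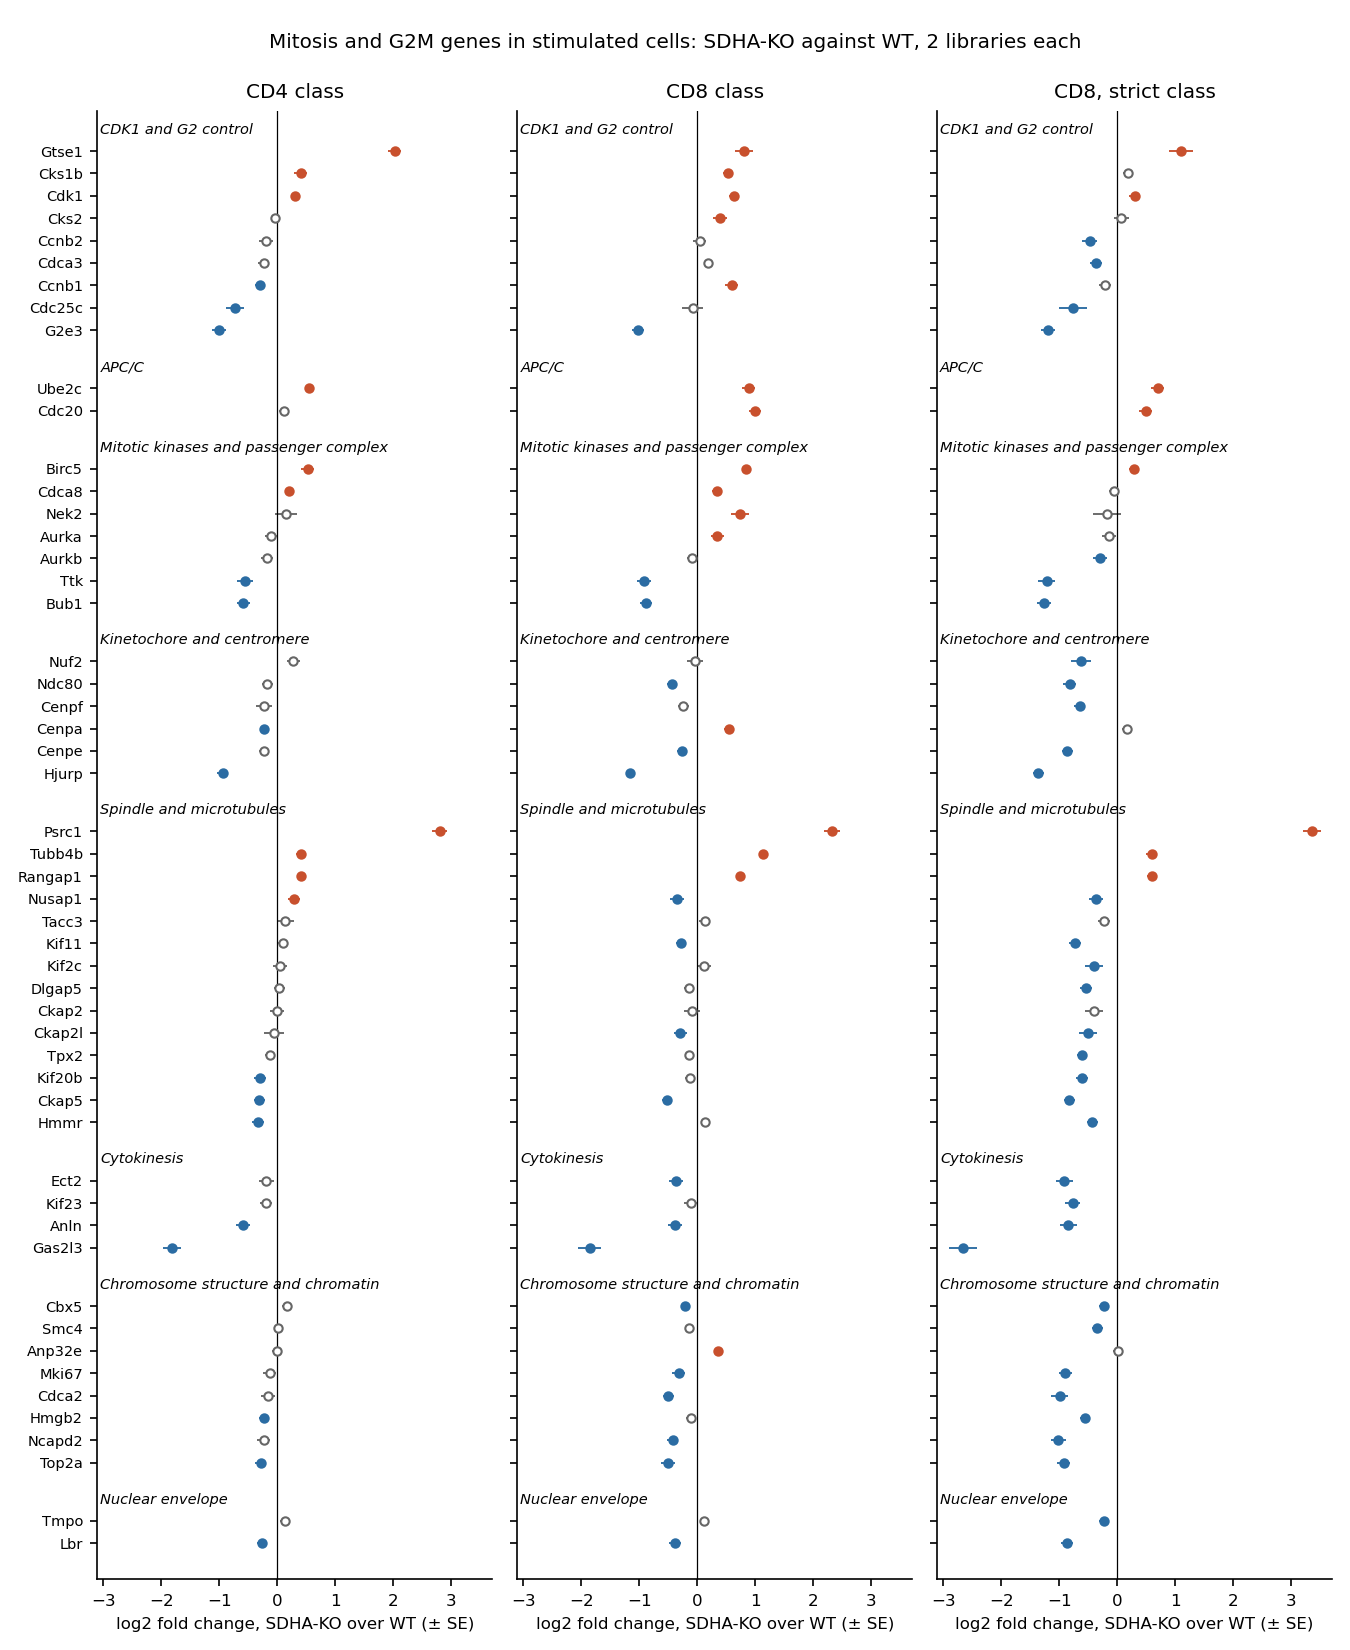
Log2 fold change of each of the 52 genes in stimulated SDHA-KO against WT cells, with bars of ± 1 SE from 2 libraries per group, grouped by role. Red and blue points passed the test as higher or lower and open points did not, in the CD4 class (10 higher, 15 lower), the CD8 class (16 and 19) and the strict CD8 class without Trdc cells (8 and 34), where most points shift to the left.

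Among the 9 genes of CDK1 and G2 control, 3 rose and 3 fell in CD4 cells and 5 rose and 1 fell in CD8 cells. Cdk1 itself stood at 101 and 109.8 CPM in WT and 131 and 130.0 CPM in SDHA-KO CD4 cells, and at 79.5 and 81.6 against 128 and 121 CPM in CD8 cells. The groups did not overlap in either class, and the rise passed the test in both (log2 fold change 0.31 ± 0.08 SE and 0.63 ± 0.09 SE), although in CD4 cells the call was lost without WT library 1 and the difference was 0.04 below 10% percent.mt. Cks1b, a small CDK-binding subunit, rose in both classes (108 and 121 against 152 and 152 CPM in CD4 cells, lost without WT library 1, and 98.6 and 107 against 146 and 149.6 CPM in CD8 cells). Its relative Cks2 rose in CD8 cells (177 and 190.4 against 248 and 232 CPM, lost without either WT library or SDHA-KO library 1) and did not pass the test in CD4 cells, with 203 and 209 against 200.5 and 199 CPM.

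Of the B-type cyclins, 1 was called in each whole class. Ccnb1, the main cyclin of mitotic entry, stood at 51.7 and 49.6 CPM in WT and 41 and 41.1 CPM in SDHA-KO CD4 cells, a fall of 0.30 ± 0.09 SE on the log2 scale (edgeR adjusted p = 0.015) that was lost without either WT library. In the CD8 class it went the other way, from 57.2 and 53.1 CPM to 90.1 and 75.7 CPM (log2 fold change 0.59 ± 0.11 SE, edgeR adjusted p = 0.0012). In the strict CD8 class no rise was called, with 57.8 and 53.6 CPM in WT and 47.1 and 49.0 CPM in SDHA-KO cells (log2 fold change −0.21, not called). Ccnb2 stood at 55.7 and 62.3 against 52.2 and 51.4 CPM in CD4 cells and at 50.7 and 55.3 against 55.3 and 53.6 CPM in CD8 cells and passed the test in neither. It fell in the strict CD8 class (log2 fold change −0.47).

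Of the regulators in this group, G2e3, a G2-phase ubiquitin ligase of the DNA damage response, fell most steadily. Its level was 44.97 and 45.4 CPM in WT against 24.8 and 20.5 CPM in SDHA-KO CD4 cells (log2 fold change −1.0 ± 0.12 SE, edgeR adjusted p = 8.0e-05), and 40.6 and 40.8 against 20.5 and 19.5 CPM in CD8 cells (−1.02 ± 0.11 SE, edgeR adjusted p = 1.8e-05). It was lower in all 4 selections of cells in both classes (all, percent.mt under 10, strict, and strict with percent.mt under 10). Gtse1, a G2 and S phase protein that restrains p53, was among the genes that rose most, and it is named after its values were seen because it lies under the 20 CPM used to choose genes. It went from 6.83 and 7.30 to 28.5 and 28.9 CPM in CD4 cells (log2 fold change 2.02 ± 0.11 SE) and from 8.51 and 7.78 to 14.6 and 13.9 CPM in CD8 cells (0.80 ± 0.16 SE). Cdc25c, the phosphatase that activates CDK1, fell in CD4 cells (9.24 and 9.64 against 5.89 and 5.49 CPM), and Cdca3 passed the test in neither class.

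Both APC/C genes rose in CD8 cells, and Ube2c was also called higher in CD4 cells. Ube2c stood at 143 and 155 CPM in WT and 213 and 222 CPM in SDHA-KO CD4 cells (log2 fold change 0.55 ± 0.07 SE, edgeR adjusted p = 0.00013), and at 116 and 125 against 234 and 211 CPM in CD8 cells (0.89 ± 0.11 SE, edgeR adjusted p = 7.4e-05). Cdc20 was 52.1 and 50.7 CPM in WT CD8 cells and 103 and 102 CPM in SDHA-KO CD8 cells (0.99 ± 0.10 SE, edgeR adjusted p = 1.3e-05). In CD4 cells Cdc20 overlapped, with 48.6 and 52.2 against 51.6 and 57.8 CPM. In the strict CD8 class Cdc20 still rose, by less, from 51.8 and 51.2 to 66.1 and 78.8 CPM (log2 fold change 0.49).

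The mitotic kinases and the chromosomal passenger complex split by member. Birc5 (survivin), a passenger subunit that is also an inhibitor of apoptosis, rose in both classes, from 123 and 129.8 to 188 and 175 CPM in CD4 cells (log2 fold change 0.52 ± 0.11 SE, edgeR adjusted p = 0.0037) and from 114 and 117 to 213 and 199 CPM in CD8 cells (0.84 ± 0.07 SE). Cdca8 (borealin), a further passenger subunit, also rose in both. Aurkb, the kinase of the passenger complex, did not pass the test in either class (54.7 and 60.9 against 55.3 and 47.0 CPM in CD4 cells, 45.7 and 51.3 against 46.7 and 44.3 CPM in CD8 cells). Aurka, the kinase of the spindle poles, rose in CD8 cells (28.1 and 25.7 against 38.2 and 30.0 CPM, log2 fold change 0.35 ± 0.12 SE) but lost that call without WT library 1, WT library 2 or SDHA-KO library 1, and stood at −0.14 in the strict class. In CD4 cells it overlapped, with 27.4 and 27.4 CPM against 27.5 and 23.5 CPM.

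The checkpoint kinases moved the other way. Bub1 fell from 43.0 and 46.7 to 31.9 and 28.0 CPM in CD4 cells and from 48.5 and 50.4 to 25.1 and 28.6 CPM in CD8 cells (log2 fold change −0.59 ± 0.11 SE and −0.89 ± 0.10 SE), with no overlap between genotypes. Ttk (MPS1) fell from 30.6 and 29.1 to 22.3 and 18.2 CPM in CD4 cells and from 28.8 and 29.2 to 16.3 and 14.3 CPM in CD8 cells (−0.56 ± 0.14 SE and −0.92 ± 0.12 SE, the first lost without WT library 1). Nek2, a centrosome kinase, rose in CD8 cells (6.20 and 6.34 against 10.3 and 10.7 CPM) and stood at a log2 fold change of −0.17 in the strict class, which was not called.

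At kinetochores and centromeres, 2 of 6 genes fell and 0 rose in CD4 cells, and 3 fell and 1 rose in CD8 cells. Hjurp, the chaperone that loads CENP-A at centromeres, had one of the steadiest falls, from 105 and 101 to 58.5 and 48.5 CPM in CD4 cells (log2 fold change −0.94 ± 0.09 SE, edgeR adjusted p = 2.1e-05) and from 96.7 and 88.7 to 42.4 and 41.04 CPM in CD8 cells (−1.15 ± 0.08 SE, edgeR adjusted p = 1.5e-06). It was lower in all 4 selections of cells in both classes. Cenpa, the centromeric histone that Hjurp loads, fell slightly in CD4 cells (118 and 119.7 against 101 and 102 CPM) and rose in CD8 cells (98.3 and 97.9 against 139 and 146 CPM). The CD4 fall was lost with any 1 of the 4 stimulated libraries left out, and in the strict CD8 class Cenpa stood at a log2 fold change of 0.16 and was not called. Cenpf, a large kinetochore protein of late G2, did not pass the test in either class (82.9 and 89.3 against 78.6 and 68.9 CPM in CD4 cells, 81.4 and 91.3 against 78.0 and 68.1 CPM in CD8 cells) and fell in the strict CD8 class (−0.65). Ndc80 and Cenpe fell in CD8 cells, and Nuf2 passed in neither.

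Among the 14 spindle and microtubule genes, 4 rose and 3 fell in CD4 cells and 3 rose and 4 fell in CD8 cells. Psrc1, a spindle protein that is also a p53 target, had the largest rise of all 52 genes in both classes. It went from 8.91 and 10.1 CPM in WT to 61.8 and 70.1 CPM in SDHA-KO CD4 cells (log2 fold change 2.80 ± 0.13 SE, edgeR adjusted p = 1.0e-07). In CD8 cells it went from 4.78 and 5.92 to 27.1 and 26.6 CPM (2.33 ± 0.14 SE, edgeR adjusted p = 8.8e-07), and in the strict CD8 class from 4.57 and 6.10 to 58.0 and 51.3 CPM (3.35 ± 0.15 SE). The genotypes were far apart in every selection of cells. Psrc1 lies under 20 CPM in CD8 cells, so its CD8 values are named after they were seen.

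Tubb4b, a β-tubulin, rose from 193 and 198 to 250.1 and 269 CPM in CD4 cells (log2 fold change 0.41 ± 0.08 SE) and from 170.1 and 171 to 371 and 379 CPM in CD8 cells (1.14 ± 0.07 SE, edgeR adjusted p = 1.2e-06), with 172 and 173 against 239.8 and 281 CPM in the strict CD8 class. Below 10% percent.mt the CD4 difference was 0.02 and not called. Rangap1, named after its values were seen, rose in both classes, and in CD8 cells it did so in all 4 selections. Nusap1, which bundles spindle microtubules, was called higher in CD4 cells (84.3 and 86.5 against 115 and 94.2 CPM) and lower in CD8 cells (74.6 and 74.7 against 64.6 and 52.4 CPM). Its calls were lost without either WT library in both classes, and also without SDHA-KO library 1 in CD4 cells and SDHA-KO library 2 in CD8 cells. Kif11, the motor that separates spindle poles, fell in CD8 cells (70.7 and 68.5 against 55.8 and 58.9 CPM, −0.28 ± 0.09 SE), a call that was lost without either WT library or SDHA-KO library 1, and stood at 71.3 and 70.1 against 80.9 and 70.3 CPM in CD4 cells. Ckap5, a microtubule polymerase, fell in both classes, Kif20b and Hmmr fell in CD4 cells, and Ckap2l fell in CD8 cells. Kif2c, Tpx2, Ckap2, Tacc3 and Dlgap5 passed in neither.

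The 4 cytokinesis genes gave falls and no rises, 2 in CD4 and 3 in CD8 cells. Gas2l3, a protein that links actin and microtubules at the midbody, had the largest fall of the 52 genes, and it too is named after its values were seen. It went from 19.3 and 19.3 to 5.57 and 5.41 CPM in CD4 cells (log2 fold change −1.82 ± 0.15 SE, edgeR adjusted p = 6.2e-06) and from 15.6 and 14.4 to 4.89 and 3.28 CPM in CD8 cells (−1.85 ± 0.20 SE, edgeR adjusted p = 6.3e-05). In the strict CD8 class it stood at 14.8 and 13.8 against 2.34 and 2.14 CPM (−2.66 ± 0.23 SE), lower in every selection of cells. Anln (anillin), the scaffold of the contractile ring, fell from 27.9 and 24.6 to 18.8 and 16.0 CPM in CD4 cells (−0.59 ± 0.13 SE, edgeR adjusted p = 0.0030), and from 33.1 and 29.5 to 25.4 and 22.4 CPM in CD8 cells, where the call was lost without WT library 1 or SDHA-KO library 2. Ect2, which activates RhoA for furrowing, fell in CD8 cells, and Kif23 passed in neither.

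Of the 8 genes of chromosome structure and chromatin, 2 fell, 0 rose and 6 were not called in CD4 cells, and 5 fell and 1 rose in CD8 cells. Top2a stood at 389 and 384 CPM in WT and 348 and 286 CPM in SDHA-KO CD4 cells (log2 fold change −0.29 ± 0.09 SE), a call lost in 5 of 8 fits that left out 1 library, and at 399 and 361 against 280 and 254 CPM in CD8 cells (−0.51 ± 0.12 SE), which held in all 8. Mki67, the gene of the proliferation marker Ki-67, which coats mitotic chromosomes, did not pass the test in CD4 cells (202 and 208 against 208 and 167 CPM). It fell in CD8 cells (224 and 232 against 196 and 169 CPM, −0.32 ± 0.11 SE), a call that was lost without either WT library or SDHA-KO library 2 and that was larger in the strict class (219.5 and 223 against 118 and 119 CPM, −0.90). Hmgb2, a DNA-bending protein of cycling cells, fell in CD4 cells (1293 and 1433 against 1200 and 1117 CPM, −0.24 ± 0.08 SE), a call lost in 4 of 8 such fits, and stood at 1099 and 1275 against 1127 and 1082 CPM in CD8 cells. Ncapd2 (condensin), Cdca2 and Cbx5 fell in CD8 cells, Anp32e, a histone chaperone, rose there, and Smc4 passed in neither. Of the 2 nuclear envelope genes, Lbr fell in both classes and Tmpo passed in neither.

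The members called in all 4 selections of cells were few on the higher side and more numerous on the lower side. The selections share cells and libraries, so they do not repeat each other independently. In CD4 cells they were Gtse1 and Psrc1 higher and 9 genes lower (Ccnb1, Cdc25c, G2e3, Bub1, Cenpa, Hjurp, Gas2l3, Top2a and Hmgb2). In CD8 cells they were Psrc1 and Rangap1 higher and 14 genes lower, among them G2e3, Bub1, Ttk, Hjurp, Gas2l3, Top2a, Ncapd2 and Mki67. Some of these lower calls were nevertheless lost in whole-class fits that left out 1 library. They were those of Ccnb1, Cenpa, Top2a and Hmgb2 in CD4 cells and of Nusap1, Ckap2l, Mki67 and Cbx5 in CD8 cells. Hmgb2 was also called higher in CD4 Tcm cells (log2 fold change 0.28).

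Fewer members rose and more fell in the strict CD8 class, which requires a Cd8a or Cd8b1 UMI and leaves out cells with a Cd4 or a Trdc UMI, so the part of each condition was not tested. In it 8 members rose and 34 fell, where 49.5% of all genes were called (25% higher and 24.4% lower), and the median log2 fold change was −0.45 against −0.03 over all genes. With percent.mt under 10 as well, 3 rose and 37 fell (16.2% and 16.6% of all genes), with a median of −0.56. In the strict CD4 class (a Cd4 UMI and none of Cd8a, Cd8b1 or Trdc) the counts were 8 higher and 17 lower (21.2% and 19.8% of all genes), close to the 10 and 15 of the whole class. By role, all 4 cytokinesis genes, 7 of 8 chromosome and chromatin genes, 5 of 6 kinetochore and centromere genes and 9 of 14 spindle genes fell in strict CD8 cells, and the rises were Cdk1, Gtse1, both APC/C genes, Birc5, Psrc1, Tubb4b and Rangap1. The log2 fold change was 0.30 for Cdk1, 0.29 for Birc5, 0.70 for Ube2c and 0.59 for Tubb4b, and −1.26 for Bub1, −1.22 for Ttk, −0.92 for Top2a, −0.73 for Kif11, −0.55 for Hmgb2 and −0.36 for Nusap1. Cks1b (0.19) and Cks2 (0.07) were not called. The strict SDHA-KO cells were deeper than the strict WT cells, with median UMIs of 33462 and 30688 against 13202 and 13329, and their median percent.mt was 2.07 and 2.27 against 18.7 and 16.8. With percent.mt under 10 as well the order of depth reversed, with 37384.5 and 34592 in SDHA-KO against 64254.5 and 65231 in WT.

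**Figure D3:**
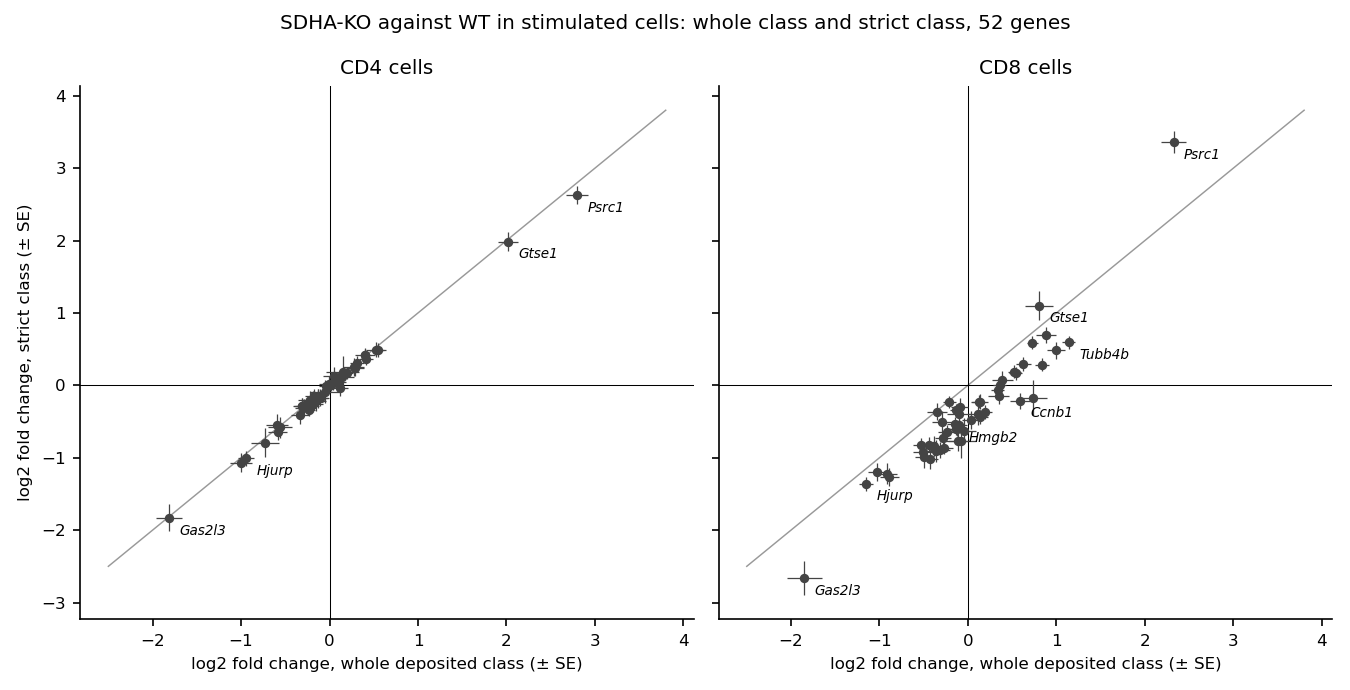
Log2 fold change of the 52 genes in stimulated SDHA-KO against WT cells in the whole class (horizontal axis) and in the strict class (vertical axis), each point a gene with bars of ± 1 SE, and the line marking equal values. CD4 genes lie close to the line, and CD8 genes lie below it, except Psrc1 (2.33 in the whole and 3.35 in the strict class) and Gtse1 (0.80 and 1.1).

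Because CD4 and CD8 sums come from the same libraries, the change in the SDHA-KO effect from CD4 to CD8 cells was tested with the library as a block. It passed for 23 members, 14 with a higher and 9 with a lower effect in CD8 cells (11.9% and 10.4% of all genes). Gtse1, named after its values were seen, had the largest difference (−1.23 ± 0.12 SE, edgeR adjusted p = 0.00091). Among members of at least 20 CPM the largest were Ccnb1 (difference in log2 fold change 0.87 ± 0.10 SE, edgeR adjusted p = 0.0013), Cdc20 (0.86 ± 0.09 SE, edgeR adjusted p = 0.0011) and Cenpa (0.76 ± 0.06 SE, edgeR adjusted p = 0.00054) on the higher side. Nusap1 (−0.66 ± 0.07 SE, edgeR adjusted p = 0.00088), Psrc1 (−0.48 ± 0.13 SE, edgeR adjusted p = 0.032) and Kif11 (−0.39 ± 0.10 SE, edgeR adjusted p = 0.025) stood on the lower side. The call of Psrc1 was lost without either WT library or SDHA-KO library 2, and that of Kif11 without WT library 1 or SDHA-KO library 1. Between strict classes the balance turned, with 3 higher (Cenpa, Cdc20 and Psrc1) and 24 lower, where 5.32% and 5.09% of all genes were called. The difference for Ccnb1 was 0.12 there and was not called, that for Psrc1 became 0.74, and Top2a (−0.61), Mki67 (−0.70) and Kif11 (−0.76) were lower in CD8 cells. Without WT library 1 the counts between whole classes were 8 higher and 3 lower, and the lower count was 5 without WT library 2, 4 without SDHA-KO library 1 and 14 without SDHA-KO library 2. In WT cells alone the classes were close, with 3 members higher in CD8 cells (Lbr, Anln and Mki67) and 6 lower (Psrc1, Cdk1, Ube2c, Cenpa, Aurkb and Hmgb2), where 23.5% of all genes were called, and 11 and 3 without composition scaling. Those counts were 1 and 2 without either WT library, and 6 were higher without either SDHA-KO library.

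Within stimulated WT cells, the same genes differed between cells of high and low percent.mt, and in an order that followed transcript length. Comparing cells at or above 10% with cells below, in the same libraries, 11 members were higher and 31 lower in CD4 cells (24.3% and 32.7% of all genes), and 11 were higher and 30 lower in CD8 cells (25.8% and 31.4%). The direction of these counts depends on the scaling. Without composition scaling, which moved the median of all genes by 0.72 and 0.56, the counts were 27 higher and 15 lower, and 25 and 18, so the values are read here relative to each other. The 11 higher in CD4 cells became 6 without WT library 1. In SDHA-KO CD4 cells the counts were 12 and 22 (41.8% of all genes called), and 30 and 11 without composition scaling. The lowest were Tubb4b (log2 fold change −2.24 in CD4 and −2.13 in CD8 cells), Cks1b (−2.19 and −1.95), Hmgb2 (−2.09 and −1.90) and Ube2c (−1.98 and −1.63). Ect2 stood at 0.87 and 0.69 and Ttk at 0.85 and 0.48, and Mki67 at −0.01 and 0.04.

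Among the 26 members whose longest annotated transcript is at or under the median of 3304 bases, the median was −0.89 in both CD4 and CD8 cells, and among the 26 longer members it was 0.03 and 0.10. Across the 52 genes, which share libraries and cells and are not replicates, Spearman's rho between length and this fold change was 0.61 in both classes. The comparison of genotypes ran the opposite way along length, with a rho of −0.36 in CD4 and −0.65 in CD8 cells. In CD8 cells 14 of the 26 shorter members rose and 3 fell, and 2 of the 26 longer members rose and 16 fell. Cells of high percent.mt were rarer in SDHA-KO, and their part in the pattern was not tested beyond the values below 10% given above.

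**Figure D4:**
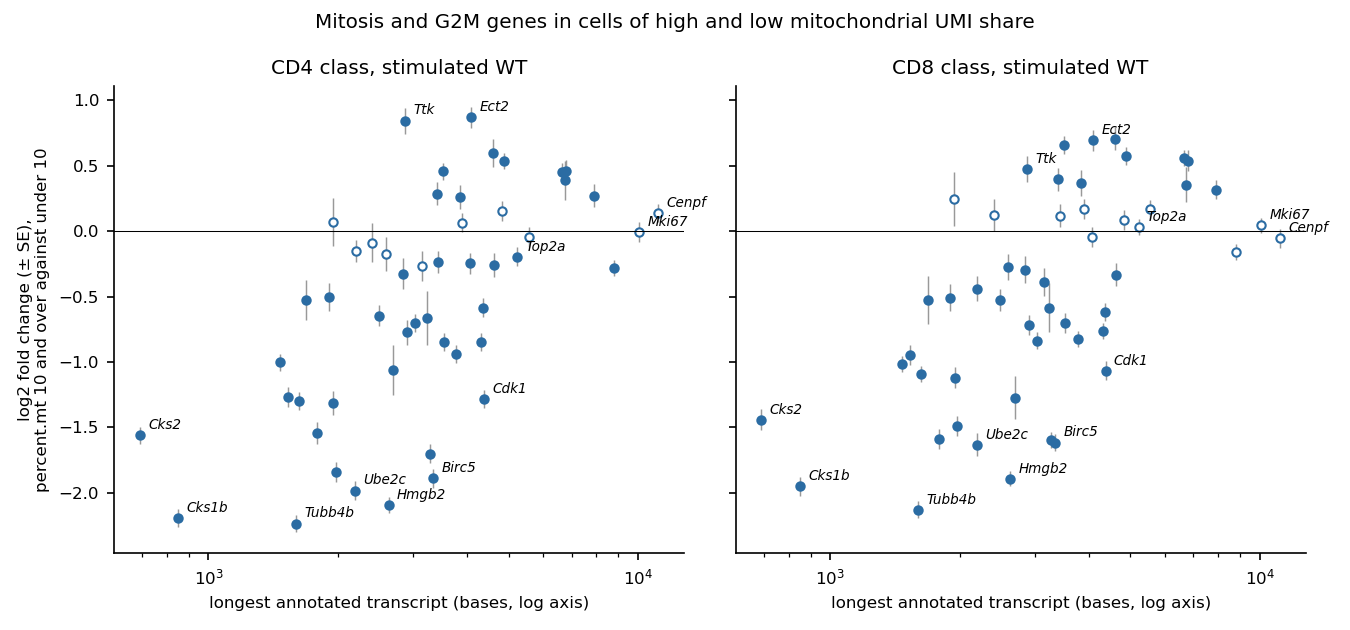
Log2 fold change between cells with percent.mt of 10 and over and cells under 10 in stimulated WT libraries (vertical axis, bars of ± 1 SE) against the longest annotated transcript of each gene in bases (log axis). Each point is 1 of the 52 genes and filled points passed the test. Short transcripts such as Cks1b and Tubb4b lie lowest and long ones such as Mki67 and Cenpf lie near 0.

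The difference between high and low percent.mt also depended on genotype for some members. In CD4 cells it was higher in SDHA-KO than in WT for 7 (Cdc20, Cdca8, Hmgb2, Anp32e, Hmmr, Tubb4b and Smc4) and lower for 0, where 3.84% of all genes were called (2.84% higher), with 8 higher and 0 lower by DESeq2 and 26 members at an unadjusted p under 0.05. In CD8 cells it was higher for Hmmr, Mki67 and Kif20b and lower for Psrc1 (2.08% and 2.30% of all genes). The count of 7 was 4 without WT library 1 and 3 without WT library 2, and the counts of 3 and 1 in CD8 cells were 1 and 0 without SDHA-KO library 1, with the call of Psrc1 also lost without SDHA-KO library 2 and by DESeq2.

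The authors' central memory (Tcm) and effector memory (Tem) labels followed percent.mt closely in stimulated cells. Cells at or above 10% made up 94.3% and 93.3% of WT CD4 Tcm cells, 56.8% and 53.8% of SDHA-KO CD4 Tcm cells, and from 0.754% to 4.56% of CD4 Tem cells. Tcm cells were 62.9% and 61.4% of WT CD4 cells and 20.8% and 17.4% of SDHA-KO CD4 cells, so the whole CD4 class mixes these subsets in different shares. In CD4 Tcm cells 19 members rose in SDHA-KO and 4 fell (12.8% and 12.3% of all genes), with a median log2 fold change of 0.22. The rises included Psrc1 (2.99), Gtse1 (2.16), Cdc20 (0.77), Ube2c (0.71), Cdca8 (0.68), Birc5 (0.65) and Mki67 (0.33), and the falls were Gas2l3 (−1.39), Hjurp (−0.81), G2e3 (−0.74) and Ttk (−0.47). Without either WT library the 19 became 8, and without composition scaling they became 31. In the few CD4 Tcm cells with percent.mt under 10 (31 and 40 WT and 102 and 103 SDHA-KO cells) the counts were 7 higher and 9 lower. The excess of rises was not seen in these cells, where the median log2 fold change was −0.22. The 7 higher were Psrc1, Gtse1, Ube2c, Cdc20, Tubb4b, Birc5 and Hmgb2. The WT sums were also smaller, at 600789 and 777870 UMIs against 6787841 and 7459561 over all WT CD4 Tcm cells, and the part of depth was not tested.

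In CD4 Tem cells 2 members rose, Psrc1 (2.65) and Gtse1 (1.79), and 15 fell (31.7% of all genes called, 15.5% higher and 16.1% lower), with a median of −0.14, and the counts were 10 and 9 without composition scaling. The falls were led by Gas2l3 (−1.65), G2e3 (−0.74), Hjurp (−0.73) and Hmgb2 (−0.64), and included Ccnb1 (−0.50) and Ccnb2 (−0.47). The 15 became 9 without WT library 2 and 24 without SDHA-KO library 1, and the 2 rises became 4 without SDHA-KO library 2. In CD8 Tcm cells 9 rose and 11 fell (14.4% and 13.5% of all genes), and in CD8 Tem cells 11 rose and 18 fell (17.1% and 16.3%). In CD8 Tcm cells the counts were 4 and 5 without WT library 1 and 1 and 4 without WT library 2, and in CD8 Tem cells the 18 became 11 without WT library 2. Psrc1 (1.84 and 2.22), Tubb4b (0.88 and 0.71) and Cdc20 (0.84 and 0.63) rose and Gas2l3 (−1.38 and −1.87), Hjurp (−1.16 and −0.92), Bub1 (−1.05 and −0.76), G2e3 and Ttk fell in both CD8 subsets.

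The step from Tcm to Tem within a library, a signed log2 difference, was lower (smaller) in SDHA-KO than in WT CD4 cells for 15 members and higher (larger) for 0 (4.66% of all genes called, 3.02% lower and 1.64% higher), with 17 and 0 by DESeq2 and 27 members at an unadjusted p under 0.05. A lower step can be a larger fall, as for Hmmr. Its level went from 125.4 and 110.5 CPM in Tcm to 104.7 and 106.3 CPM in Tem in WT. In SDHA-KO it went from 154.4 and 155.7 to 90.93 and 70.71 CPM. Cdc20 had the largest difference, with Tem above Tcm by 1.67 on the log2 scale in WT and by 0.66 in SDHA-KO (difference −1.01 ± 0.13 SE, edgeR adjusted p = 0.0021). Hmgb2 (2.22 against 1.30) and Cdca8 (1.31 against 0.52) followed. The authors drew the subset labels from clusters of these same cells, so contrasts of Tem with Tcm are a description. The word step names a difference between labels, and no cells were followed from Tcm to Tem. The 15 became 23 without SDHA-KO library 1, and 1 member was larger in SDHA-KO without SDHA-KO library 2. Within WT CD4 cells 26 members were higher in Tem and 15 lower (34.1% and 28.4% of all genes), and within SDHA-KO CD4 cells 20 and 20 (52.6% of all genes called). These splits turned to 15 and 29, and 9 and 37, without composition scaling, which moved the median of all genes by −0.79 and −0.81, and the test of the difference between genotypes gave 15 under both. In CD8 cells 0 members differed between genotypes in this step by edgeR and 1 by DESeq2, with 10 at an unadjusted p under 0.05 (0.187% of all genes called). Without SDHA-KO library 1 the step was larger in SDHA-KO for 1 and smaller for 3, and without SDHA-KO library 2 it was smaller for 7.

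The share of cells with these transcripts gave a further view of the sums. After thinning every cell to 5000 UMIs, 81.9% and 79.1% of stimulated WT CD4 cells and 61.1% and 55.5% of SDHA-KO CD4 cells held UMIs of at least 10 of the 52 genes. In CD8 cells the shares were 89.1% and 85.2% against 82.6% and 80.5%, and in strict CD8 cells 89.2% and 85.1% against 59.3% and 55.8%. The libraries of the genotypes did not overlap, but an exact permutation test of 2 against 2 libraries cannot go below p = 0.33, so no test is given. Thinning equalises total UMIs but not those of nuclear genes, since median percent.mt was 15.9 and 14.9 in WT and 1.79 and 1.77 in SDHA-KO CD4 cells. It also left out 18 and 20 WT and 74 and 86 SDHA-KO CD4 cells with fewer UMIs, and from 2 to 6 cells per CD8 library. In the unstimulated CD4 and CD8 classes the share was at most 0.243%. From 156 to 193 CD4 cells and from 36 to 162 CD8 cells per library held 8 to 11 of the genes, near the limit used.

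At the other end the order of the genotypes in CD4 cells was reversed. Cells with at least 25 of the genes made up 9.16% and 8.77% of WT and 16.3% and 12.7% of SDHA-KO CD4 cells, and the 10% of cells with the most member UMIs held 20.1% and 20.6% of all member UMIs in WT and 25.4% and 27.6% in SDHA-KO. The members together took 0.647% and 0.653% of nuclear UMIs in WT and 0.638% and 0.581% in SDHA-KO CD4 cells, so the sums were closer than the shares of cells. Mki67 was detected in 57.0% and 56.5% of thinned WT CD4 cells and in 43.3% and 38.2% of SDHA-KO CD4 cells (80.1% and 80.8% against 60.8% and 55.1% before thinning), while its CPM overlapped. The background for such shares was 0% to 0.434%, the share of Mki67 in thinned naive unstimulated cells.

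**Figure D5:**
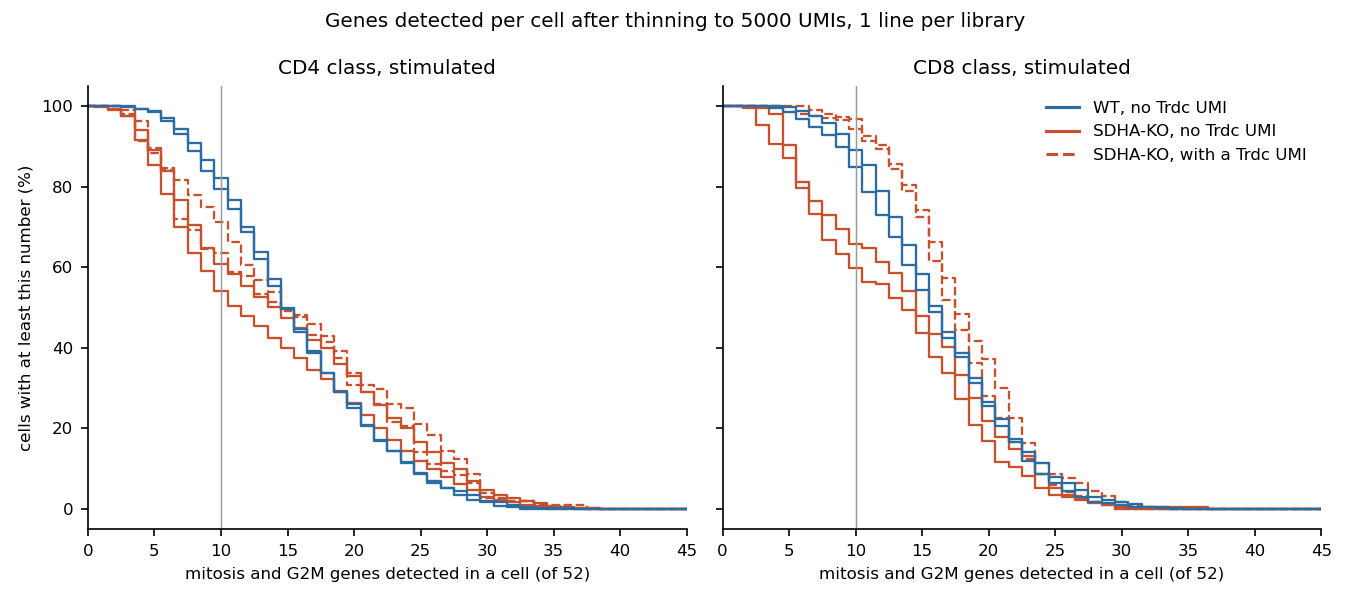
Share of stimulated cells (vertical axis, percent) with at least a given number of the 52 genes detected (horizontal axis) after thinning to 5000 UMIs, 1 line per library. In CD4 cells the SDHA-KO lines start below the WT lines (61.1% and 55.5% against 81.9% and 79.1% at 10 genes, grey line) and cross them at higher numbers, and in CD8 cells SDHA-KO cells with a Trdc UMI (dashed) lie above SDHA-KO cells without one.

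In the SDHA-KO CD8 class the cells with a Trdc UMI stood apart. At least 10 of the genes were found in 94.3% and 96.8% of them and in 65.7% and 59.9% of the cells without a Trdc UMI, and the members took 0.755% and 0.708% against 0.547% and 0.515% of nuclear UMIs. Median depth was alike, at 29193 and 30122 UMIs with and 31524 and 29908 UMIs without a Trdc UMI, and median percent.mt was 6.80 and 5.87 against 2.41 and 2.31. WT CD8 cells without a Trdc UMI lay between, with 89.0% and 85.0% at 10 or more genes.

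Within libraries the members did not vary together to the same degree. Over the 8 combinations of stimulated library and class, in thinned cells with percent.mt under 10, the median Spearman's rho between a gene's UMIs and the number of UMIs of the other members in a cell was 0.52 for Top2a, 0.50 for Mki67 and 0.48 for Ube2c. It was 0.00 for Psrc1 (−0.15 to 0.28) and 0.11 for Gtse1, which are sparse. These values share cells and depth and are given as a description.

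Other genes of the pathway were read from lists written by hand. Of 62 other mitotic genes, 15 rose and 12 fell in CD4 cells and 15 rose and 19 fell in CD8 cells (8 and 6, and 9 and 11, with percent.mt under 10). Among all genes 22.7% rose and 20.5% fell in CD4 cells and 26.8% and 23.5% did so in CD8 cells, close to the shares of this list except for the 19 lower in CD8 cells. Spc25, a kinetochore subunit, and Pttg1 (securin, the APC/C target that guards separase) rose most in CD4 cells, by 1.15 and 1.00 on the log2 scale, and Cit (citron kinase) fell in both classes (−0.58 and −0.74). Tuba1c, an α-tubulin, and Ube2s, the second APC/C ubiquitin-conjugating enzyme, rose most in CD8 cells (1.01 and 0.97). Of 34 genes that control G2/M transcription and entry, 11 rose and 5 fell in CD4 cells and 12 rose and 7 fell in CD8 cells (7 and 5, and 5 and 8, with percent.mt under 10). Cdkn1a (p21), the CDK inhibitor and p53 target, rose by 1.57 in CD4 cells (1.21 with percent.mt under 10) and by 0.63 in CD8 cells, Trp53 itself rose by 0.53 in CD4 cells, and Nfyb, a subunit of NF-Y, fell by 0.61 in CD4 cells. Gadd45a was also looked at, and its values are not given here. Targets of p53 were not tested as a set. The rises of Psrc1, Gtse1, Cdkn1a and Trp53 are therefore single genes and give no direction for that pathway. Cdc25a and Ccna2 rose and Rb1 and Tfdp2 fell in CD8 cells. Of 44 S phase genes, 15 rose and 3 fell in CD4 cells and 19 rose and 5 fell in CD8 cells, led by Tyms and Mcm2 in CD4 and by Rrm2 and Tyms in CD8 cells. With percent.mt under 10, 6 rose and 6 fell in CD4 cells, where 16.0% of all genes rose and 16.7% fell, and 5 rose and 7 fell in CD8 cells, where 18.4% and 17.0% did so.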

How the data were processed

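Cells were sequenced with the 10x Genomics 3′ HT assay. The deposited matrix holds counts, raw UMIs per gene and cell, which the authors made with bcl2fastq and Cell Ranger on build mm10 (submitters' processing notes, with no version given there), after removing cells with very many genes and clusters without Cd3 in Seurat. The authors' cell table gives percent.mt as a percent of each cell's UMIs, and CD class and subset named by cluster. No doublet caller was run here. UMIs were summed per library and class, stimulated CD4 libraries summing 859 to 1284 cells, and tested with edgeR 4.0.16 (quasi-likelihood, TMM, filterByExpr with a minimum count of 10 and total of 15, Benjamini-Hochberg over all genes, threshold 0.05) in 1 fit of 4 groups over 8 libraries, or with the library as a block for contrasts within libraries. SE is that of the fitted log2 fold change. DESeq2 1.42.0, other filters and scalings, left-out libraries and other cell selections were the alternatives. Scripts were tested on simulated counts. Coordinates of promoters are RefSeq's on GRCm38.p6.

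The members and lists were chosen with earlier results of these data known. Library values are given for 18 members named for their role and, with a mean of at least 20 CPM, the 3 largest rises and falls in each class and in their difference, and from the other lists the 2 largest. Gtse1, Gas2l3, Rangap1, Cdc25c, Nek2, Smc4 and Lbr, and Psrc1 in CD8 cells, fall outside that rule and were named after their values were seen, as were Gadd45a, Cdkn1a in CD8 cells and members listed without values. The depth of a sum sets its precision, and shares of cells carry counting error.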

Additional observations from a re-analysis of the deposited data

Results flagged for a closer look

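These results were picked out because an effect differed between 2 groups in a test of the difference itself. The SDHA-KO effect differed between CD8 and CD4 cells for 23 members (edgeR, library as a block). The largest was that of Gtse1 (−1.23). Among members named by the rule for library values the difference in log2 fold change, CD8 minus CD4, was 0.87 for Ccnb1, 0.86 for Cdc20, 0.76 for Cenpa, 0.72 for Tubb4b, 0.43 for Aurka, 0.42 for Cks2, 0.33 for Ube2c, 0.30 for Cdk1 and 0.30 for Birc5. It was −0.66 for Nusap1, −0.48 for Psrc1, −0.39 for Kif11 and −0.38 for Ttk. Between strict classes Cdc20 and Cenpa were called with the same sign, Psrc1 with the opposite one (0.74), and Ccnb1 was not called, and the part of cells with a Trdc UMI was not tested further.

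The step from Tcm to Tem in CD4 cells differed between genotypes for 15 members, all with a lower signed step in SDHA-KO, which for Hmmr was a larger fall. The step from low to high percent.mt differed for 7 members in CD4 cells and 4 in CD8 cells. Both steps divide the same cells, and 94.3% and 93.3% of WT but 56.8% and 53.8% of SDHA-KO CD4 Tcm cells lay at or above 10% percent.mt, so the CD4 results are not independent of each other.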

How the results depend on the processing

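Of the values for the 24 members named by the rule, 12 turned direction (Nek2, outside the rule, also turned, to −0.17 in the strict CD8 class). In the strict CD8 class these were Ccnb1 (−0.21), Ccnb2 (−0.47) and Aurka (−0.14), and with percent.mt under 10 as well Ccnb1 (−0.43), Birc5 (−0.13), Cenpa (−0.10) and Cks1b (−0.28). Between strict classes they were Birc5 (−0.20), Hmgb2 (−0.26) and Psrc1 (0.74), and in cells thinned to 5000 UMIs Hmgb2 in CD4 (0.074) and Aurka in CD8 cells (−0.020). The cause was not tested. Of counts, medians and shares, 399 values stayed within 1.5 times or 1 SD and 117 moved.

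Counts that moved are given as members higher or lower. In the strict class CD8 cells went from 16 higher to 8 and from 19 lower to 34, CD8 cells under 10% from 10 to 3 and from 18 to 37, and the CD8 minus CD4 difference from 14 to 3 and from 9 to 24. DESeq2 gave 9 lower in CD4, 11 lower in CD8, 12 higher in CD4 Tcm, 7 lower in CD8 Tcm and 3 lower for the difference, and for the KO minus WT steps in CD8 cells 1 lower (Tem) and 0 lower (percent.mt). Without composition scaling the counts were 10 higher and 9 lower in CD4 cells under 10%, 31 higher in CD4 Tcm, 10 and 9 in CD4 Tem, 6 lower in CD8 Tcm, 11 and 3 for CD8 against CD4 in WT, 0 lower after stimulation in both classes and 1 higher in unstimulated CD8 cells. The Tem step became 15 and 29 (WT) and 9 and 37 (KO) in CD4, 16 and 27 and 15 and 29 in CD8 cells, and the percent.mt step 27 and 15 and 30 and 11 in CD4, 25 and 18 and 26 and 16 in CD8 cells. With no filter on low counts there were 6 higher in unstimulated CD4 cells, 2 lower after stimulation in CD4 cells, 8 lower for the KO minus WT Tem step in CD4, 1 higher and 2 lower in CD8 cells, and 1 lower (CD4) and 4 lower (CD8) for the percent.mt step. Without mitochondrially encoded genes there was 1 higher in unstimulated CD4 cells and 2 lower after stimulation. Under 10% percent.mt CD4 Tcm cells had 7 higher and 9 lower and CD8 Tcm cells 3 higher. The members' share of UMIs was 0.546% (WT CD4), 0.539% (KO CD4), 0.563% (WT CD8) and 0.554% (KO CD8) in thinned cells, 0.619% and 0.650% in WT CD4 and CD8 cells under 10%, and 0.650% and 0.684% of nuclear UMIs in WT. The share of cells with 10 or more members was 75.5% in WT CD4 and 73.7% in KO CD8 cells under 10%.

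With 1 library left out, counts ranged in CD4 cells from 6 to 12 higher and 7 to 21 lower, 11 to 22 lower under 10%, 8 to 20 higher in Tcm, 2 to 4 higher and 9 to 24 lower in Tem, 0 to 1 higher unstimulated and 1 to 2 lower after stimulation. In CD8 cells they ranged from 11 to 18 lower, 6 to 11 higher and 11 to 20 lower under 10%, 1 to 11 higher and 4 to 12 lower in Tcm, and 11 to 18 lower in Tem. They ranged from 1 to 6 higher and 2 to 8 lower for CD8 against CD4 in WT, and 8 to 14 and 3 to 14 for the difference. The KO minus WT Tem step ranged from 0 to 1 higher and 10 to 23 lower in CD4 and 0 to 1 and 0 to 7 in CD8 cells, the WT CD8 Tem step from 9 to 14 lower, the KO minus WT percent.mt step from 3 to 8 higher in CD4 and 1 to 3 higher and 0 to 1 lower in CD8 cells, and the WT CD4 percent.mt step from 6 to 13 higher.

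Libraries with the same replicate number did not deviate together (correlations of −0.078 to 0.048 between same-numbered libraries). Whether they share a mouse or a batch is not stated in their labels, and these correlations cannot decide it. With the replicate block 1 member was higher in unstimulated CD4 cells and 7 were lower in CD8 Tcm cells, and no other count of members moved by over 1.5 times. In simulated counts with 2 libraries per group, changes of 0.5 on the log2 scale in genes of at least 20 CPM were called for 60.5% of genes in CD4 and 42.2% in CD8 cells, so smaller differences can be missed.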
